A study of Sus scrofa with 19 samples.

Results

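TLR3, IFIH1, DDX60, ZBP1 and EIF2AK2 encode proteins that detect double-stranded RNA or other nucleic acids, or that act with such detectors. Each was followed through the probe sets on a pig expression array whose only gene symbol in the array annotation was one of these names. This gave 5 genes, with 1 probe set each (15235750, 15239575, 15223702, 15249978 and 15271947, in the order of the names above), out of 12217 symbols that had a probe set of their own. The genes were picked because earlier results of these same arrays had shown them lower in offspring of sows given lipopolysaccharide (LPS, the outer membrane component of Gram-negative bacteria). Their differences by maternal LPS are therefore given below as a description, with standard errors and no test.

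The arrays measured RNA from whole adrenal glands of 19 male pigs, 1 per sow. The sows ate a fish oil, a microalgae or a control diet from gestation day 75, and on gestation day 112 they received LPS or saline. Every piglet, whatever its dam had received, was weaned at 21 days of age, was itself given LPS at 28 days of age and was killed 2 hours later. No piglet without its own LPS challenge was analysed here, so all levels are levels after that challenge. The groups were fish oil with maternal LPS (4 piglets) and with maternal saline (4), microalgae with maternal LPS (2) and with maternal saline (3), and control diet with maternal LPS (3) and with maternal saline (3). Piglets are named below by the numbers in their labels.

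The question was how maternal diet and the maternal LPS challenge bore on adrenal transcripts. All values are deposited log2 intensities, so a difference of -1 is a halving. Array medians lay between 4.38 and 4.52, and pairwise correlations of arrays over all probe sets lay between 0.934 and 0.982. The glands carried high signals of the steroid-forming enzymes of the cortex (CYP17A1 averaged 12.36 and CYP21A2 11.22), while 2 other cortex markers, SULT2A1 at 3.26 and NR0B1 at 3.91, were low.

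As background, double-stranded RNA appears in cells during viral infection and, at lower amounts, from the cell's own transcripts. TLR3 reads it inside endosomes and signals through the adaptor TICAM1. IFIH1, also called MDA5, is a cytosolic helicase that binds long duplexes and signals through MAVS on mitochondria. DDX60 is a helicase reported in human and mouse cells to aid signalling by such cytosolic receptors. ZBP1 binds nucleic acids in the left-handed Z form and engages the kinase RIPK3, a route to necroptotic cell death. EIF2AK2, also called PKR, is a kinase that binds double-stranded RNA and phosphorylates the translation factor eIF2 alpha, which slows protein synthesis. Transcription of all these genes is raised by type I interferon in human and mouse cells, and LPS can start interferon production through TLR4 and TICAM1.

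In offspring of fish oil sows, all 5 sensors were lower after maternal LPS than after maternal saline, by 0.66 to 1.33 on the log2 scale, where 48.9% of tested probe sets were lower; the genes were chosen for this. In control diet offspring the same differences lay between -0.38 and 0.09. TLR3 was the member that was lower after maternal LPS under each of the diets with no overlap between the groups. Such a separation was found for 1.44% of tested probe sets under fish oil, 14.7% under microalgae and 2.92% under the control diet. TLR3 was itself chosen for being lower after maternal LPS. None of the diet differences or diet by LPS interactions of the 5 genes passed the test after adjustment over all probe sets.

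TLR3, the endosomal receptor, read 5.48, 5.4, 5.47 and 4.88 in fish oil offspring after maternal LPS (piglets 10, 19, 20 and 24), against 6.58, 6.25, 6.68 and 6.99 after maternal saline (piglets 9, 11, 13 and 18). Every LPS value was below every saline value. Under microalgae it read 6.37 and 4.62 after maternal LPS (piglets 7 and 23), against 6.89, 6.49 and 6.49 after maternal saline (piglets 12, 15 and 22). The groups again did not overlap, but the 2 LPS piglets lay far apart, with piglet 7 close to the saline piglets and piglet 23 the lowest of all 19. Under the control diet it read 5.69, 5.49 and 5.95 after maternal LPS (piglets 6, 16 and 17), against 6.29, 5.99 and 5.99 after maternal saline (piglets 8, 14 and 21). Here too the groups were apart, by a gap much smaller than that under fish oil. The difference of maternal LPS minus saline was -1.32 ± 0.273 under fish oil, -1.13 ± 0.352 under microalgae and -0.38 ± 0.315 under the control diet (log2, SE). Each SE rests on 1 estimate of the spread shared by all 6 groups. The SD of TLR3 was 1.23 in the 2 microalgae LPS piglets, against 0.175 to 0.309 in the other groups. The microalgae SE therefore does not reflect the spread of those 2 piglets. The microalgae value was -0.25 without piglet 23 and -2.0 without piglet 7. Averaged over the 3 diets the difference was -0.94 ± 0.182, a linear ratio of 0.521.

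IFIH1, the MAVS-coupled helicase, read 8.56, 8.55, 8.12 and 8.57 in fish oil offspring after maternal LPS, against 9.19, 8.92, 9.36 and 9.45 after maternal saline, with piglets in the order given for TLR3. The groups did not overlap, and 3 of the 4 LPS piglets were close together, with piglet 20 below them. Under microalgae IFIH1 read 9.24 and 8.64 after maternal LPS, against 9.14, 9.40 and 9.29 after maternal saline. Under the control diet it read 8.97, 8.93 and 9.0 after maternal LPS, against 8.91, 9.23 and 9.02 after maternal saline. In both of these diets the groups overlapped. The differences were -0.78 ± 0.159, -0.34 ± 0.205 and -0.08 ± 0.183 for fish oil, microalgae and control diet (log2, SE).

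DDX60, the helicase said to assist the cytosolic receptors, read 5.88, 6.17, 5.02 and 6.74 in fish oil offspring after maternal LPS, against 7.67, 6.61, 7.24 and 7.62 after maternal saline. This was the widest spread of any member in the fish oil groups, and 1 LPS piglet, number 24, lay above saline piglet 11, so the groups overlapped. Under microalgae DDX60 read 7.45 and 6.45 after maternal LPS, against 6.73, 7.17 and 6.85 after maternal saline. Under the control diet it read 7.24, 6.60 and 6.81 after maternal LPS, against 6.98, 6.75 and 6.64 after maternal saline. The saline values lay inside the range of the LPS values in both diets. The differences were -1.33 ± 0.312 under fish oil, 0.03 ± 0.403 under microalgae and 0.09 ± 0.361 under the control diet.

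ZBP1, the Z-form nucleic acid sensor, read 6.5, 6.38, 5.70 and 6.69 in fish oil offspring after maternal LPS, against 7.55, 7.25, 7.09 and 7.45 after maternal saline. The groups did not overlap, and piglet 20 was again the lowest. Under microalgae ZBP1 read 7.44 and 6.40 after maternal LPS, against 7.11, 7.05 and 6.56 after maternal saline. Under the control diet it read 6.68, 6.91 and 6.71 after maternal LPS, against 7.40, 6.87 and 6.83 after maternal saline. Both sets overlapped. The differences were -1.02 ± 0.235, 0.01 ± 0.303 and -0.27 ± 0.271 for fish oil, microalgae and control diet.

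EIF2AK2, the kinase that acts on eIF2 alpha, read 9.41, 9.46, 8.75 and 9.12 in fish oil offspring after maternal LPS, against 9.73, 9.73, 10.12 and 9.79 after maternal saline. The groups did not overlap. Under microalgae it read 9.86 and 9.43 after maternal LPS, against 9.73, 9.90 and 9.78 after maternal saline. Under the control diet it read 9.63, 9.64 and 9.85 after maternal LPS, against 9.41, 9.91 and 9.71 after maternal saline. Both of these sets overlapped. The differences were -0.66 ± 0.169, -0.15 ± 0.218 and 0.03 ± 0.195, the smallest of the 5 members under fish oil.

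**Figure D1:**
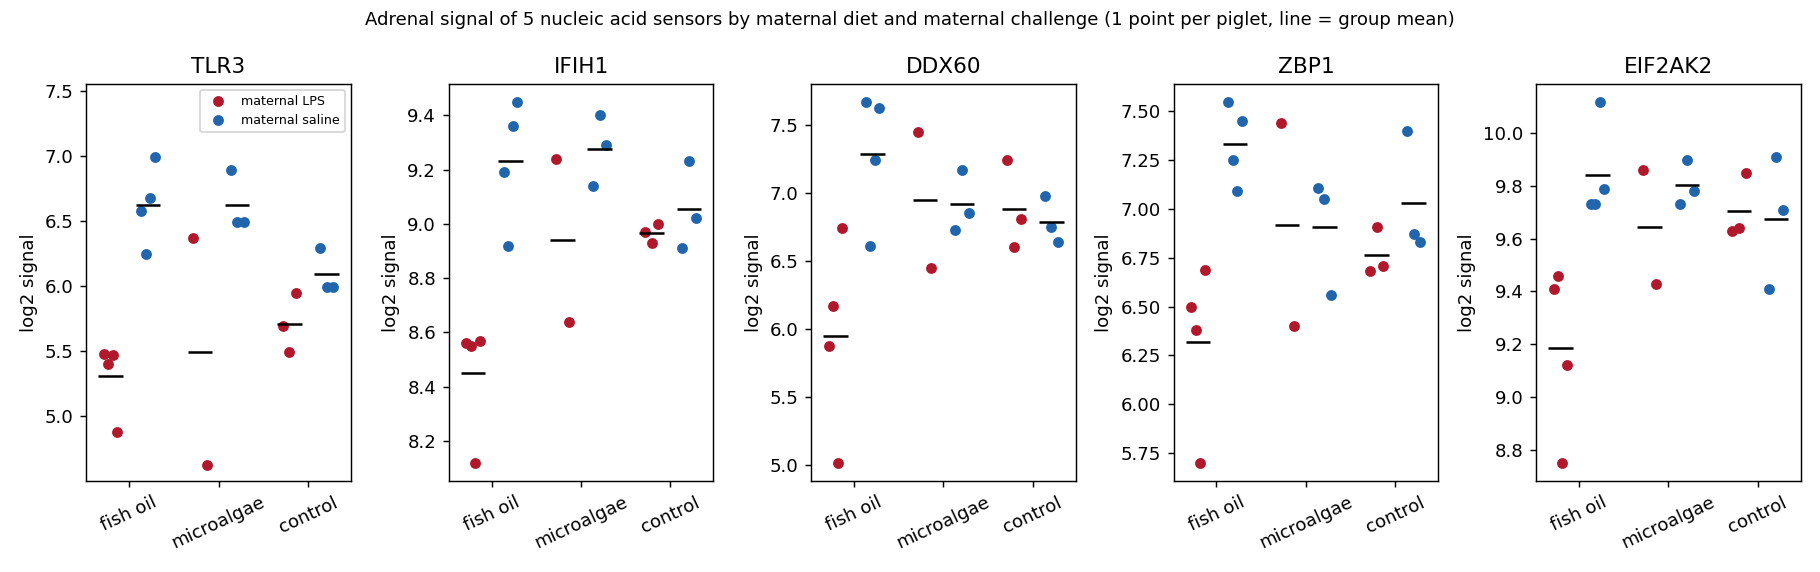
Deposited log2 intensity of each sensor in each of the 19 piglets, with 1 panel per gene, the maternal LPS group drawn left of the maternal saline group within each diet, and a line at each group mean. The fish oil groups are apart for TLR3, IFIH1, ZBP1 and EIF2AK2, and of the 2 microalgae LPS piglets, piglet 7 lies above piglet 23 in every panel.

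Under fish oil 4 of the 5 genes had every LPS piglet below every saline piglet, where 1.44% of the 20668 tested probe sets did. Under the control diet 1 of 5 did (TLR3), against 2.92% of tested probe sets, and under microalgae 1 of 5 (TLR3), against 14.7%. Since the members were chosen for being lower after maternal LPS, nothing is read from these counts. The median difference of the 5 was -1.02 under fish oil, -0.15 under microalgae and -0.08 under the control diet, where the median of all tested probe sets was 0.01, 0.03 and 0. Averaged over diets it was -0.40 (all tested probe sets, 0.01). That average leaned on single microalgae piglets. Without piglet 23 the DDX60 average was -0.23 and the ZBP1 average -0.25, against -0.40 and -0.43 with all piglets; without piglet 7 the TLR3 average was -1.23. In whole glands, fewer cells of a type and less RNA per cell cannot be told apart.

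**Figure D2:**
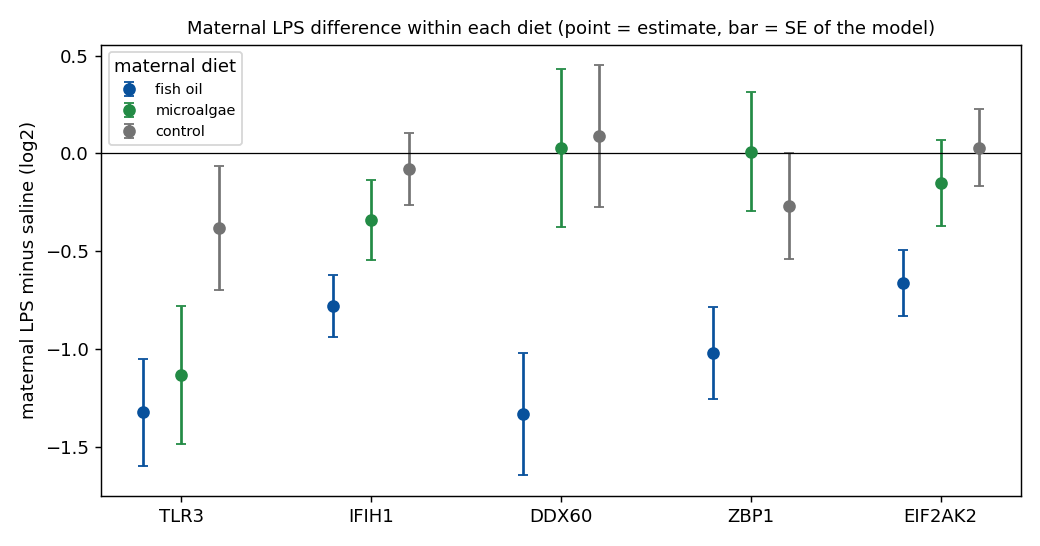
Difference of maternal LPS minus maternal saline (log2) for each sensor under the fish oil, microalgae and control diets, with bars of 1 SE from the fit over all probe sets. Under fish oil all 5 points lie at -0.66 or lower, and under the control diet they lie between -0.38 and 0.09.

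The order of the 6 group means put fish oil with maternal LPS lowest for each gene, at 5.31 for TLR3, 8.45 for IFIH1, 5.95 for DDX60, 6.32 for ZBP1 and 9.18 for EIF2AK2. For IFIH1 this group lay wholly below the next one, microalgae with maternal LPS, and neighbours above it overlapped. The share of probe sets separated between groups of different diets was not computed. For TLR3 the order went on with microalgae LPS at 5.50, control LPS at 5.71, control saline at 6.09 and then the microalgae and fish oil saline groups, both at 6.62. There the 3 LPS groups overlapped in turn, whereas control saline overlapped neither the control LPS group below it nor the microalgae saline group above it. It did overlap the fish oil saline group, with 6.29 at most in control saline and 6.25 at least in fish oil saline. For DDX60, ZBP1 and EIF2AK2 each pair of neighbours in the order overlapped. Fish oil with maternal saline was the highest group for DDX60 (7.28), ZBP1 (7.34) and EIF2AK2 (9.84).

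Whether the maternal LPS difference depended on diet was tested as an interaction, which contains the fish oil difference already known when the genes were chosen. The intervals and p values of the fish oil interaction are therefore not independent of that choice. For all 5 genes the fish oil difference was further below 0 than the control diet difference. The interaction was -1.42 ± 0.477 for DDX60 (95% interval -2.43 to -0.42), -0.70 ± 0.242 for IFIH1 (-1.21 to -0.19) and -0.69 ± 0.257 for EIF2AK2 (-1.23 to -0.14), from limma. It was -0.94 ± 0.417 for TLR3 (-1.82 to -0.06) and -0.75 ± 0.358 for ZBP1 (-1.50 to 0.01). After Benjamini-Hochberg adjustment over all probe sets, limma's adjusted p was 1 for each, and 0% of tested probe sets were called. At an unadjusted p under 0.05, 4 of the 5 genes were on the negative side, against 1.6% of tested probe sets on that side and 2.64% on either, and nothing is read from this count. The microalgae interaction ranged from -0.75 ± 0.473 (TLR3, 95% interval -1.74 to 0.25) to 0.28 ± 0.406 (ZBP1, -0.57 to 1.14), with adjusted p from 0.858 to 0.99 by limma and 0% of probe sets called. At an unadjusted p under 0.05 it had 0 of the 5 genes, against 5.41% of probe sets. Single piglets turned both ends of that range: TLR3 was 0.12 without piglet 23 and ZBP1 was -0.24 without piglet 7.

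Fish oil and control diets were then compared within each maternal treatment. These comparisons reuse the fish oil groups whose LPS minus saline difference was known when the genes were chosen, which favours low values after maternal LPS and high values after maternal saline, so the intervals and counts are not independent of that choice. After maternal LPS all 5 sensors were lower under fish oil than under the control diet, where 50.7% of tested probe sets were lower. None passed the test (adjusted p of 1 for each gene by limma, 0% of probe sets called). The differences were -0.93 ± 0.337 for DDX60 (95% interval -1.64 to -0.22), -0.52 ± 0.171 for IFIH1 (-0.88 to -0.16), -0.52 ± 0.182 for EIF2AK2 (-0.91 to -0.14), -0.45 ± 0.253 for ZBP1 (-0.98 to 0.09) and -0.40 ± 0.295 for TLR3 (-1.02 to 0.22). For IFIH1, all 4 fish oil piglets were below all 3 control diet piglets (8.57 at most, against 8.93 at least). How often other probe sets were separated between these groups was not computed, and nothing is read from this. At an unadjusted p under 0.05 there were 3 of the 5 genes (DDX60, IFIH1 and EIF2AK2), against 1.73% of probe sets on the lower side and 3.34% on either, and nothing is read from this count. After maternal saline the same 5 differences had the opposite sign, where 51.2% of tested probe sets were higher. They were 0.53 ± 0.295 for TLR3 (95% interval -0.09 to 1.15), 0.49 ± 0.337 for DDX60 (-0.22 to 1.20), 0.30 ± 0.253 for ZBP1 (-0.23 to 0.83), 0.18 ± 0.171 for IFIH1 (-0.18 to 0.54) and 0.16 ± 0.182 for EIF2AK2 (-0.22 to 0.55). Limma's adjusted p was 1 for each of these as well, with 0% of probe sets called, and at an unadjusted p under 0.05 there were 0 of the 5 genes, against 2.13% of probe sets.

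With both maternal treatments averaged, fish oil minus control diet was therefore near 0, between -0.22 ± 0.239 for DDX60 and 0.06 ± 0.208 for TLR3, with 0% of probe sets called and an adjusted p of 1 for each by limma. The 95% intervals of these averages reached from -0.72 at the lowest (DDX60) to 0.50 at the highest (TLR3). For microalgae minus control diet the averages lay between 0.01 ± 0.203 for ZBP1 and 0.16 ± 0.236 for TLR3, again with 0% called and an adjusted p of 1 by limma. Without piglet 7 all 5 turned negative, to -0.28 for TLR3, -0.25 for ZBP1, -0.15 for DDX60, -0.08 for EIF2AK2 and -0.05 for IFIH1. Microalgae minus control diet after maternal LPS was -0.22 ± 0.352 for TLR3, -0.06 ± 0.218 for EIF2AK2, -0.03 ± 0.205 for IFIH1, 0.07 ± 0.403 for DDX60 and 0.15 ± 0.303 for ZBP1 (adjusted p of 0.999 by limma, 0% called). After maternal saline it ran from -0.13 ± 0.271 for ZBP1 to 0.53 ± 0.315 for TLR3 (adjusted p of 1 by limma, 0% called). At an unadjusted p under 0.05, 0 of the 5 genes were found in any of these averages or comparisons, against 2.69% of probe sets for fish oil minus control diet, 1.65% for microalgae minus control diet, 3.64% for microalgae minus control diet after maternal LPS and 2.72% after maternal saline.

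The oils themselves were set against each other, again with the fish oil groups whose values bore on the choice of genes. After maternal LPS, fish oil minus microalgae was -1.0 ± 0.382 for DDX60 (95% interval -1.80 to -0.19), -0.60 ± 0.287 for ZBP1 (-1.20 to 0.01), -0.49 ± 0.194 for IFIH1 (-0.89 to -0.08), -0.46 ± 0.206 for EIF2AK2 (-0.90 to -0.03) and -0.19 ± 0.334 for TLR3 (-0.89 to 0.52). The adjusted p by limma was 0.705 to 0.924, and 0% of probe sets were called. At an unadjusted p under 0.05 there were 3 of the 5 genes (DDX60, IFIH1 and EIF2AK2), against 3.74% of probe sets on the lower side and 7% on either, and nothing is read from this count either. Both microalgae LPS piglets were above all 4 fish oil LPS piglets for IFIH1, at 9.24 and 8.64 against 8.57 at most under fish oil. The share of probe sets separated in this way was not computed, and nothing is read from this separation. The median of these 5 differences, -0.49, was -1.06 without piglet 23 and -0.19 without piglet 7. After maternal saline, fish oil minus microalgae lay between -0.04 ± 0.171 for IFIH1 and 0.43 ± 0.253 for ZBP1, with an adjusted p of 1 by limma and 0% called. Averaged over maternal treatments, it lay between -0.31 ± 0.255 for DDX60 and -0.08 ± 0.192 for ZBP1 (adjusted p of 1 by limma, 0% called). At an unadjusted p under 0.05 there were 0 of the 5 genes after maternal saline (2.45% of probe sets) and 0 in the average (2.85%).

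**Figure D3:**
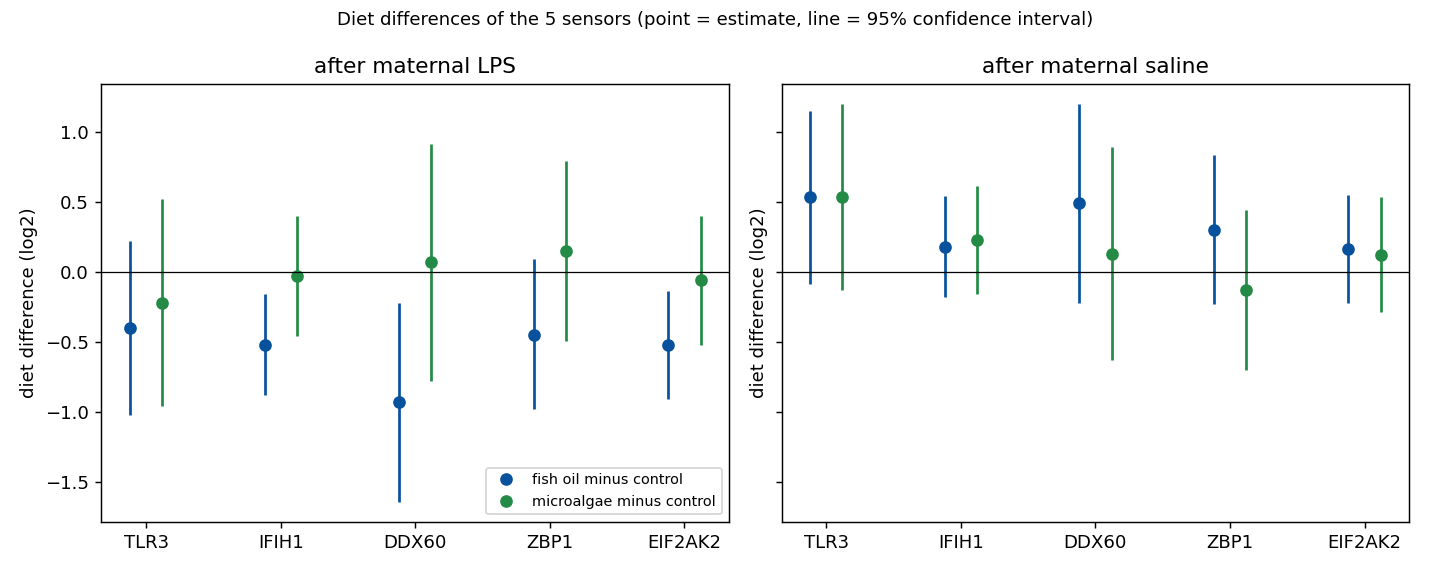
Diet differences (log2) of the 5 sensors after maternal LPS and after maternal saline, with 95% confidence intervals from the fit over all probe sets. The fish oil minus control diet points lie below 0 after maternal LPS and above 0 after maternal saline for every gene, and none passed the adjusted threshold.

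Several cell type markers moved beside these values. Of 16 tested macrophage markers, all 16 were higher after maternal LPS in control diet offspring (median 0.37). In fish oil offspring 13 were lower (median -0.16), and in microalgae offspring 14 were lower (median -0.26). None of these markers passed the adjusted test. Their summed level was 9.37 to 10.08 after maternal LPS and 9.32 to 10.53 after maternal saline under fish oil, and 9.80 to 9.86 after maternal LPS and 9.25 to 9.57 after maternal saline under the control diet. With a macrophage score in the fit, the fish oil interaction was -0.26 for ZBP1 and -0.64 for TLR3. It was -1.23, -0.69 and -0.79 for DDX60, IFIH1 and EIF2AK2. The fish oil LPS difference was then -1.26 for DDX60, -1.22 for TLR3, -0.86 for ZBP1, -0.78 for IFIH1 and -0.69 for EIF2AK2. With that score the control diet LPS difference was -0.60 for ZBP1 and -0.58 for TLR3, against -0.27 and -0.38 without it. All 8 tested markers of the adrenal medulla were lower after maternal LPS under fish oil (median -0.40, none past the adjusted test), with a summed level of 10.51 to 11.52 after maternal LPS and 10.96 to 11.94 after maternal saline. With a medulla score in the fit, the fish oil LPS difference was -1.16 for TLR3, -0.77 for IFIH1, -1.23 for DDX60, -0.93 for ZBP1 and -0.61 for EIF2AK2. Of 6 plasmacytoid dendritic cell markers 5 were lower under fish oil (median -0.05), as were 4 of 5 neutrophil markers (median -0.04), while 12 of 13 fibroblast markers were higher (median 0.27) and 9 of 12 endothelial and 9 of 16 lymphocyte markers were higher (medians 0.09 and 0.06). The part of macrophages, of the medulla and of these 5 cell types in the results was not tested.

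Piglets of 1 group also differed among themselves, which the choice of genes did not use. Each gene's values were taken as deviations from the piglet's group mean, and the 10 pairs of genes were correlated over the 19 piglets, with p from 100000 permutations within groups. IFIH1 and EIF2AK2 deviated together most closely, with Pearson's r = 0.775 (permutation p = 0.00195, adjusted over the 10 pairs 0.0195) and Spearman's rho = 0.796 (permutation p = 0.00128, adjusted 0.0128). Without piglets 11 and 20, the 2 farthest from the median of IFIH1, r was 0.715. IFIH1 with DDX60 gave r = 0.751 (permutation p = 0.013, adjusted 0.0472) and rho = 0.677 (permutation p = 0.0148, adjusted 0.0738), with r = 0.57 without those piglets. DDX60 with ZBP1 gave r = 0.722 (permutation p = 0.0142, adjusted 0.0472) and rho = 0.60 (permutation p = 0.0454, adjusted 0.151), with r = 0.566 without piglets 20 and 24. So the first of these pairs passed the adjusted threshold by both measures, and the others by r but not by rho.

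The other 7 pairs passed by neither measure. IFIH1 with ZBP1 gave r = 0.514 (adjusted permutation p = 0.483), DDX60 with EIF2AK2 gave r = 0.395 (adjusted permutation p = 0.543) and ZBP1 with EIF2AK2 gave r = 0.276 (adjusted permutation p = 0.583), the lowest of the 10. Without the 2 farthest piglets these were 0.374, 0.242 and -0.21. The 4 correlations of TLR3 lay between 0.283 and 0.495, with an adjusted permutation p of 0.583 each, and between -0.0706 and 0.0896 without piglets 7 and 23. Differences between the correlations were not tested. Those are the 2 microalgae LPS piglets, whose deviations are equal and opposite because their group has no other member. The points of any such correlation share an array, so array-wide shifts enter all genes at once. The share of other gene pairs with r as high was not computed. NBN and UBA7, named below for their high r over all piglets, gave within-group r of 0.874 with IFIH1 and 0.917 with DDX60. In all, 4 of the 19 piglets had all 5 genes on the same side of their group mean, 2 above (piglets 7 and 19) and 2 below (piglets 11 and 23). Piglets 7 and 23 mirror each other, so they are not separate cases. The count to be had from other sets of 5 genes was not computed.

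**Figure D4:**
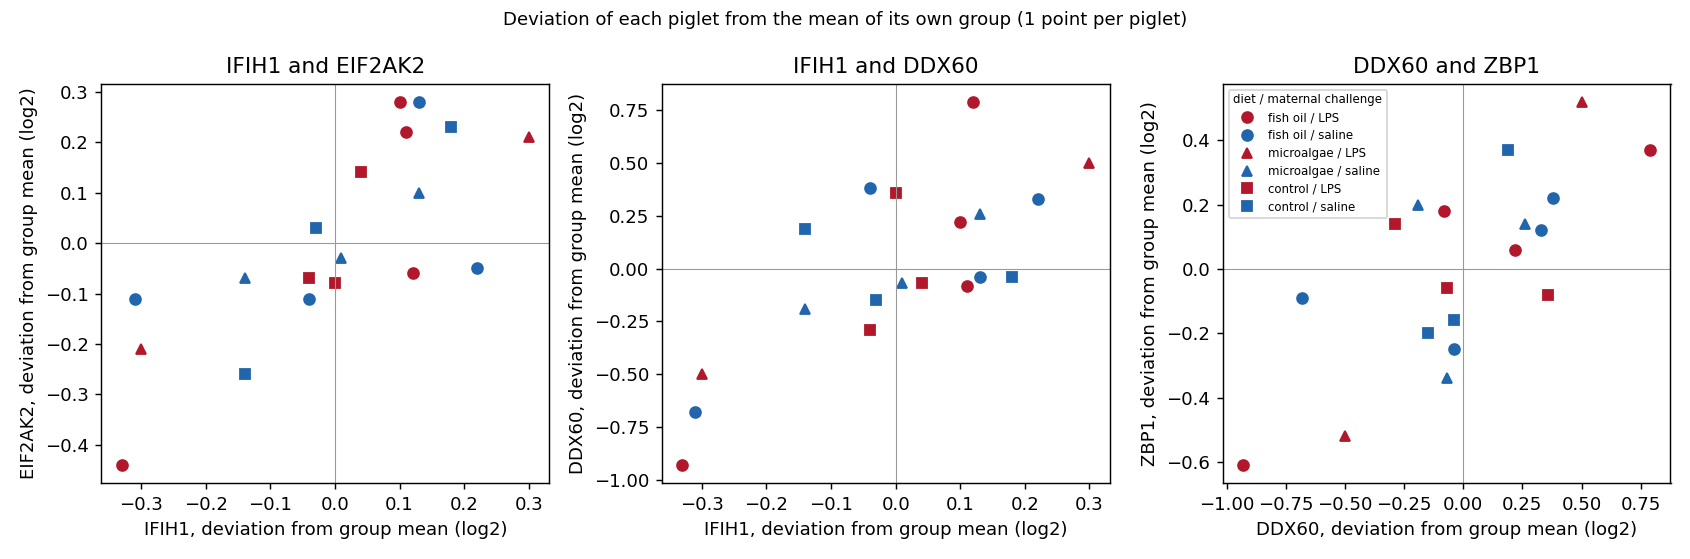
Deviation of each piglet from its group mean (log2) for the 3 pairs of sensors with the highest r, 1 point per piglet, with colour for maternal treatment and shape for diet. The r is 0.775 for IFIH1 and EIF2AK2, 0.751 for IFIH1 and DDX60 and 0.722 for DDX60 and ZBP1.

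The genes most like each sensor were taken by Pearson's r of the log2 values over the 19 piglets, among 9992 tested symbols, as a description that holds group differences as well as differences within groups. Closest to TLR3 were RMI1, a partner of the BLM helicase (r = 0.867), NUB1, which lowers the level of the ubiquitin-like protein NEDD8 (0.855), and MORC3 (0.842), N4BP1 (0.839) and the transcription factor IRF2 (0.838). Closest to IFIH1 were NBN, a DNA double-strand break repair protein (0.953), TDRD7 (0.922), ATAD2 (0.919), EIF2AK2 (0.905) and CASP1, the inflammasome protease (0.903). EIF2AK2 had NBN (0.906), IFIH1 (0.905), CASP1 (0.896), USP15 (0.873) and ATAD2 (0.866). DDX60 was closest to USP18, which removes ISG15 from proteins and damps interferon receptor signalling (0.908), then to SP140 (0.904), UBA7, the activating enzyme for ISG15 (0.90), CDHR4 (0.883) and HERC5, a ligase for ISG15 in human cells (0.879). ZBP1 was closest to USP18 (0.913), GVIN1 (0.907), STAT2, a transcription factor of the type I interferon response (0.906), TRIM21 (0.885) and GBP2 (0.885). Within groups the same r was lower for the TLR3 genes, 0.497 to 0.66, than for those of ZBP1, 0.781 to 0.897.

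Other genes of nucleic acid sensing and of interferon signalling were described by role, from lists drawn up with earlier results of these arrays known. Adjusted p values given for listed genes are therefore not independent of how the lists were drawn up. None of the listed genes passed the adjusted test in any comparison. For maternal LPS, 0.00968% of probe sets were called averaged over diets and 0% under fish oil. Of 11 tested other RNA sensors, 8 were lower after maternal LPS averaged over diets (median -0.04), where 48.2% of tested probe sets were lower, and under fish oil 5 were lower and 6 higher (median 0.03). DHX58, or LGP2, the relative of IFIH1 that lacks signalling domains, read 5.38 to 7.16 in fish oil offspring after maternal LPS and 7.14 to 7.71 after maternal saline, a difference of -0.83 ± 0.286 with a slight overlap. ZC3HAV1, an RNA-binding antiviral protein, differed by -0.60 ± 0.16 and the helicase DDX3X by -0.41 ± 0.149 under fish oil, against 0.24 for the endosomal receptor TLR7. The adjusted p by limma under fish oil was 0.792, 0.403 and 0.891 for DHX58, ZC3HAV1 and DDX3X. Under microalgae DDX3X differed by -0.38 ± 0.192, ZC3HAV1 by -0.25 ± 0.207, DHX58 by 0 ± 0.369 and TLR7 by -0.84 ± 0.245.

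Among 8 tested DNA sensors 4 were lower and 4 higher after maternal LPS averaged over diets (median 0.02), and CGAS stood lowest. CGAS, the enzyme that makes cyclic GMP-AMP on cytosolic DNA, read 4.57 to 5.33 in fish oil offspring after maternal LPS and 5.68 to 6.54 after maternal saline, with no overlap. Its difference was -1.11 ± 0.219 under fish oil (limma adjusted p = 0.206), -0.18 ± 0.253 under the control diet and -0.13 ± 0.283 under microalgae. STING1, which CGAS signals through, differed by 0.02 under fish oil and 0.18 under the control diet.

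The 4 tested genes around 2-5A, the oligoadenylate that double-stranded RNA causes OAS enzymes to make, were all lower after maternal LPS averaged over diets (median -0.32; -0.54 under fish oil with 3 of 4 lower). OAS2 read 8.21 to 9.06 in fish oil offspring after maternal LPS, against 9.21 or more after maternal saline, also with no overlap. The OAS2 difference was -1.09 ± 0.281 under fish oil (limma adjusted p = 0.38) and -0.23 ± 0.324 under the control diet. PDE12, which degrades 2-5A, differed by -0.65 ± 0.159 under fish oil (limma adjusted p = 0.337) and by -0.16 ± 0.183 under the control diet. Under microalgae PDE12 differed by -0.73 ± 0.205, further below 0 than under fish oil, and OAS2 by -0.09 ± 0.362.

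Genes that act after the sensors came next. Of 18 tested adaptors and kinases 12 were higher after maternal LPS averaged over diets (median 0.03), and under fish oil 10 were higher and 8 lower (median 0.02). MAVS, the adaptor of IFIH1, differed by -0.07 under fish oil and -0.12 under the control diet. IRF3 differed by -0.15 and 0.10, and IRF7, a factor that amplifies interferon output, by -0.55 ± 0.233 and 0.06 ± 0.269 under fish oil and the control diet. Of 10 tested modifiers of RIG-I and MDA5, 7 were lower averaged over diets (median -0.03) and 5 under fish oil (median -0.05). Of 7 tested partners of ZBP1 in necroptosis and related death, 3 were lower averaged over diets (median 0.02) and 4 under fish oil (median -0.08). There CASP1 differed by -0.82 ± 0.182 (limma adjusted p = 0.253) and RIPK3, which ZBP1 binds, by 0.04.

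The genes around EIF2AK2 and its substrate also had medians near 0. Of 13 tested, 8 were lower averaged over diets (median -0.06) and 6 under fish oil (median 0.01). EIF2S1, which encodes eIF2 alpha, differed by 0.24 under fish oil, and PPP1R15A, a subunit of the phosphatase that reverses the phosphorylation, by -0.31. Of the interferons and their receptors only 3 of 7 on the array passed the filter on low levels (medians -0.12 both averaged over diets and under fish oil).

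The transducers of interferon signals had, after the 2-5A group, the largest share of genes lower averaged over diets. Of 9 tested, 8 were lower averaged over diets (median -0.19) and 7 under fish oil (median -0.35). IRF2, a transcription factor that binds the promoters of interferon-induced genes, read 6.63 to 7.04 in fish oil offspring after maternal LPS and 7.67 to 7.95 after maternal saline, with no overlap. Its difference was -0.91 ± 0.191 under fish oil (limma adjusted p = 0.212) and -0.38 ± 0.22 under the control diet. STAT2 read 7.12 to 8.11 in fish oil offspring after maternal LPS and 8.28 to 8.66 after maternal saline, a difference of -0.76 ± 0.203 (limma adjusted p = 0.403). USP18 differed by -1.36 ± 0.398 (limma adjusted p = 0.518), and its fish oil groups overlapped, with 4.88 to 7.09 after maternal LPS and 6.92 to 7.91 after maternal saline. JAK2, a kinase of the interferon gamma receptor, differed by -0.84 ± 0.256 under fish oil and by -0.55 ± 0.295 under the control diet. Under microalgae the differences were -0.60 ± 0.246 for IRF2, -0.07 ± 0.262 for STAT2, 0.53 ± 0.514 for USP18 and 0.12 ± 0.33 for JAK2.

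**Figure D5:**
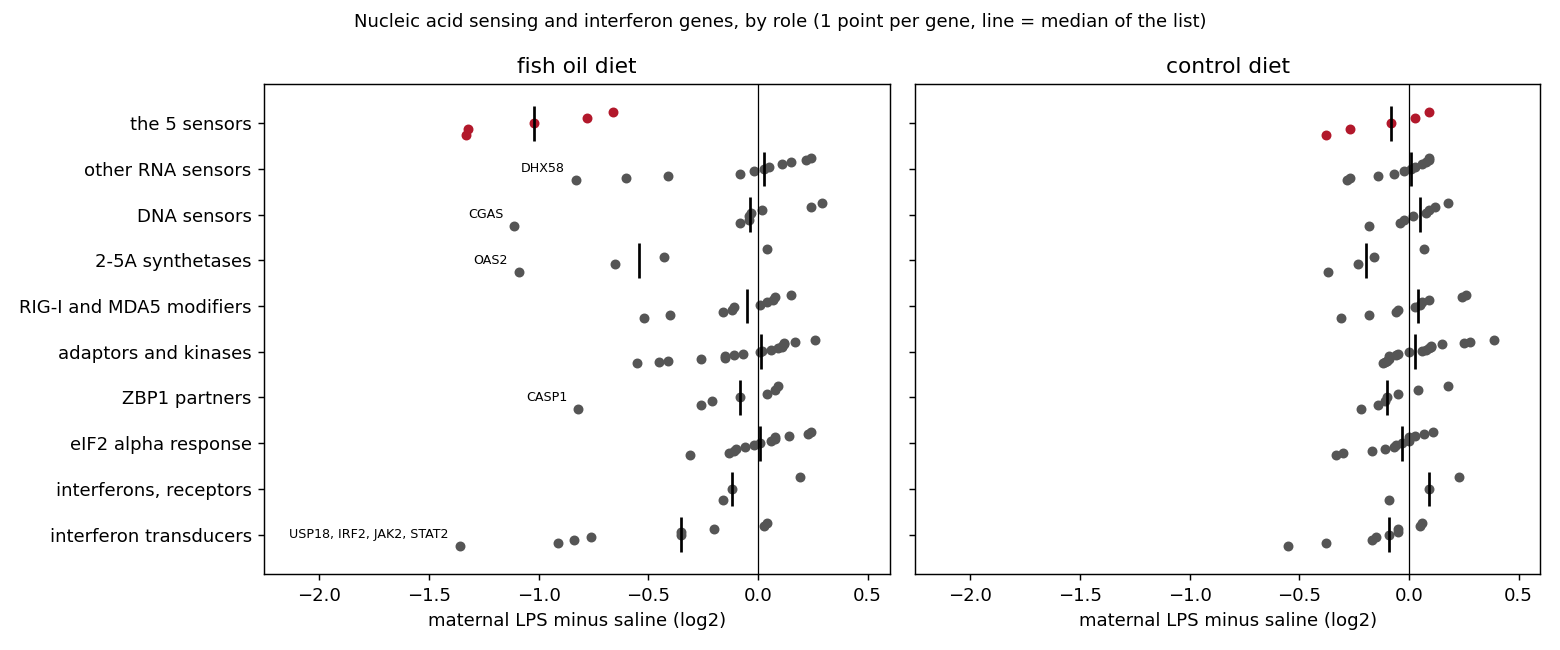
Difference of maternal LPS minus saline (log2) for the 5 sensors and for other genes grouped by role, under the fish oil diet and the control diet, with 1 point per gene and a line at each list's median. The microalgae diet is not drawn. Names mark genes below -0.7 under fish oil, and the 2-5A and transducer lists have the lowest medians there after the 5 sensors, at -0.54 and -0.35.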

How the data were processed

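Biotin-labelled cDNA from total RNA of 19 adrenal glands was hybridised to 1-colour Affymetrix arrays. The authors deposited 1 processed value per probe set and array. Transcriptome Analysis Console 4.0 was used, per the submitters' processing notes, which name no normalization. The deposited values are taken as log2 intensities from their range (0.263 to 13.5). Of 27558 probe sets, 13157 had 1 gene symbol in the array annotation, 523 several and 13878 none, and 7 symbols were updated. Probe sets whose mean was among the lowest 25% (log2 under 3.23) were left out, leaving 20668, among them all 5 members.

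A model of 6 group means was fitted with limma 3.58.1 (R 4.3.3, intensity trend). Benjamini-Hochberg adjustment ran over all tested probe sets, with a threshold of 0.05. The group sizes limit precision. Piglets came from separate sows. Alternatives were other filters and normalizations, array weights, covariates, an additive model and leaving out piglets. The fit was tested on simulated data. Named genes were the members, the 5 genes most like each by r, and genes of the role lists, any of which could be named beside the list's counts. The members and lists were chosen with earlier results of these data known.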

Additional observations from a re-analysis of the deposited data

Results flagged for a closer look

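In groups of 4 piglets, a value was singled out when its gap to the nearest other, divided by the range of its group, was above Dixon's critical value at 95%. Chance does this in about 5% of groups, and 3 of the 10 groups examined were marked. These were the fish oil groups after maternal LPS and after maternal saline, taken once for each gene, so they share piglets and are not independent. TLR3 was 4.88 in piglet 24, a fish oil piglet after maternal LPS, below the other 3 of its group (a gap of 0.867 of the range). Without this piglet the TLR3 difference of maternal LPS minus saline under fish oil was -1.17, against -1.32 with it. IFIH1 was 8.12 in piglet 20 of the same group, with the other 3 close together (0.966 of the range), and the fish oil difference was -0.67 without this piglet, against -0.78 with it. EIF2AK2 was 10.12 in piglet 13, a fish oil piglet after maternal saline, above the other 3 of its group (0.844 of the range), and the difference was -0.56 without it, against -0.66 with it.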

How the results depend on the processing

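No paired analysis was possible because the labels give no replicate numbers shared between groups. No member passed the adjusted threshold in any of the 11 tested comparisons under any alternative (322 counts, 0 above 0), and the fish oil LPS minus saline difference kept its sign for all 5 genes under all 29 alternatives run for it. The median of the 5 genes moved beyond the replicate spread when single microalgae LPS piglets (7 or 23) were left out: leave-one-out medians lay between -0.51 and 0.06 for LPS minus saline under microalgae, -0.37 and 0.56 for microalgae minus control diet after LPS, -1.06 and -0.19 for fish oil minus microalgae after LPS, and -0.56 and 0.12 for the microalgae interaction. Some signs turned; the cause was not tested. For microalgae minus control diet averaged over maternal treatments, all 5 genes turned negative without piglet 7, and leaving out 1 piglet gave -0.28 to 0.59 for TLR3, -0.05 to 0.25 for IFIH1, -0.15 to 0.35 for DDX60, -0.25 to 0.27 for ZBP1 and -0.08 to 0.14 for EIF2AK2. For the microalgae interaction it gave -1.62 to 0.12 for TLR3, -0.56 to 0.04 for IFIH1, -0.56 to 0.44 for DDX60, -0.24 to 0.80 for ZBP1 and -0.40 to 0.03 for EIF2AK2. For fish oil minus microalgae it gave -0.53 to 0.34 for TLR3 and -0.34 to 0.18 for ZBP1, and for fish oil minus control diet -0.13 to 0.03 for ZBP1. Other turns of sign were TLR3 fish oil minus control diet (-0.02 with the macrophage score), EIF2AK2 microalgae minus control diet (-0.03 with array weights) and ZBP1 microalgae minus control diet (-0.01 with the medulla score, -0.04 in the additive model, -0.01 without piglets 6 and 24). The DDX60 microalgae interaction was 0.05 after quantile normalization, 0.14 with the macrophage score, 0.01 with array weights and 0.12 without piglets 6 and 24. Values that round to 0.00 were not counted as turned. Over all probe sets, the 2 called for maternal LPS averaged over diets became 0 to 12 over 30 alternatives (0 without a filter, after quantile normalization, with the medulla or macrophage score, in the additive model or without piglets 6 and 24; 4 with array spread, 9 with array weights, 12 without piglet 7), and under fish oil up to 7 were called (array spread) against 0. Up to 3 were called under microalgae, up to 2 for fish oil minus microalgae after LPS and up to 1 for fish oil minus control diet after LPS, each against 0. The mean over a gene's probe sets was not run, since each member had 1. Signal over background could not be judged from the deposited values, and the group sizes limit the precision.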
